A study of Mus musculus with 6 samples.

Results

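The 10 genes described here carry out MHC class I antigen presentation, and each was read on 6 single-colour Agilent arrays of newborn mouse kidney. They were chosen as a named list and not by a rule on measured values, though earlier results of these data were known. The list is B2m, H2-K1, H2-D1, Tap1, Tap2, Tapbp, Psmb8, Psmb9, Psmb10 and Nlrc5. All 10 had a probe, found through RefSeq accessions, and the 12 probes were NM_009735 for B2m, NM_001001892 for H2-K1 with 2 probes, NM_010380 for H2-D1, NM_013683 for Tap1, NM_011530 for Tap2, NM_001025313 for Tapbp, NM_010724 for Psmb8, NM_013585 for Psmb9, NM_013640 for Psmb10 and NM_001033207 for Nlrc5 with 2 probes. They are 10 of 21219 genes tested, 15196 of which carried a gene name. Tap1 entered the test only through the arrays labelled WT, because none of the 3 arrays labelled KO gave it a signal well above background.

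The kidneys came from 3 neonates labelled USP10 KO and male and from 3 labelled USP10 WT and male, and expression was measured roughly 6 hours after birth. The product of Usp10 removes ubiquitin from proteins. Strain, deleted exons, any Cre driver and litter are not given in the sources used here, and the design text speaks of independent neonates. The comparison asks which kidney transcripts differ with the genotype.

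MHC class I molecules show peptides from inside a cell to CD8 T cells at the cell surface. The proteasome cuts proteins into peptides, and its interferon-inducible form, the immunoproteasome, replaces the catalytic subunits with Psmb8, Psmb9 and Psmb10. The transporter made of Tap1 and Tap2 pumps peptides into the endoplasmic reticulum, where tapasin (Tapbp) helps load them onto a heavy chain such as H2-K1 or H2-D1 paired with beta-2 microglobulin (B2m). Nlrc5 is the transactivator that drives class I genes, and interferons raise most genes of the pathway. B2m lies on chromosome 2, Psmb10 and Nlrc5 on chromosome 8, and the other 7 in the MHC region of chromosome 17.

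Several features of the arrays bear on every value. Between 64.4% and 73.9% of 43020 non-control spots were well above background, none was saturated, and 3 arrays a group limit the precision. The headers give 1 scan time to KO replicates 1 and 2 and WT replicates 2 and 3 (scan 1) and another to KO replicate 3 and WT replicate 1 (scan 2). The single Usp10 probe read 3.64, 3.37 and 3.56 on the arrays labelled KO and 3.01, 3.13 and 2.95 on those labelled WT, in log2 units relative to the array's 75th percentile. It was higher on every array labelled KO (log2 difference 0.49 ± 0.16 SE, limma adjusted p = 0.416), which goes against the labels, and whether the probe lies in the deleted part is not given, so KO and WT below mean the arrays labelled so. Although all 6 neonates are labelled male, the Y-linked gene Eif2s3y read -8.11 on WT replicate 2, against 1.14 and 1.83 on WT replicates 1 and 3, and the brighter Xist probe was well above background on WT replicates 1 and 2 (-0.62 and 0.43) and on no other array. Values without WT replicates 1 and 2 are therefore given beside the members' results. All 14 kidney markers, such as Umod, Lrp2 and Six2, were well above background on all 6 arrays, and none was called, the smallest p being that of Cited1 (log2 difference -0.68, limma adjusted p = 0.385).

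Promoters of B2m, Psmb8 and Psmb9 are shown first, the members with the smallest adjusted p among those with a window in the table used, which gave none for Nlrc5 or Tap2, with H2-K1, a heavy chain chosen after its values were seen, for comparison. Each window runs from 250 bases before to 50 bases after the start of the gene, 5′ to 3′ on the gene's strand, as given by RefSeq for GRCm38.p6. Capitals mark matches to 4 motifs sought on both strands: the interferon-stimulated response element (ISRE), written as GAAA repeated after 2 bases of any kind, the gamma-activated site (GAS) TTCNNNGAA, the kappaB motif GGGNNTTCC and the inverted CCAAT box ATTGG.
B2m, chr2:122147437-122147736, plus strand: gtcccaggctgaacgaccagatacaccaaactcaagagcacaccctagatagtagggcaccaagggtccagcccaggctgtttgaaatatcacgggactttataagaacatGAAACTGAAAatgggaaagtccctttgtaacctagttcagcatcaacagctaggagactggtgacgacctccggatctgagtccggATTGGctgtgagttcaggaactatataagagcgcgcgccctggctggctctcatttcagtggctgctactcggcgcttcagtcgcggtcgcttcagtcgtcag
Psmb8, chr17:34197945-34198244, plus strand: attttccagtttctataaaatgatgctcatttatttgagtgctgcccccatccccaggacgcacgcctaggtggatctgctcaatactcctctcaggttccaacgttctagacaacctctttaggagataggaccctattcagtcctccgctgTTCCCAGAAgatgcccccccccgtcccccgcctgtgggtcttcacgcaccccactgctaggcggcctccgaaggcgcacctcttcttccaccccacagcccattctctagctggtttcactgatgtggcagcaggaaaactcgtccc
Psmb9, chr17:34187281-34187580, minus strand: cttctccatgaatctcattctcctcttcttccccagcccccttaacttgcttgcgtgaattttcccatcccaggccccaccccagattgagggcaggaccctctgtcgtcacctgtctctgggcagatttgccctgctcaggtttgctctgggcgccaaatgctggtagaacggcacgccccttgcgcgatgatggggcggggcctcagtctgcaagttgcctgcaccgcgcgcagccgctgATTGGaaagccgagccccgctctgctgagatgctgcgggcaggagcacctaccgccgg
H2-K1, chr17:34000298-34000597, minus strand: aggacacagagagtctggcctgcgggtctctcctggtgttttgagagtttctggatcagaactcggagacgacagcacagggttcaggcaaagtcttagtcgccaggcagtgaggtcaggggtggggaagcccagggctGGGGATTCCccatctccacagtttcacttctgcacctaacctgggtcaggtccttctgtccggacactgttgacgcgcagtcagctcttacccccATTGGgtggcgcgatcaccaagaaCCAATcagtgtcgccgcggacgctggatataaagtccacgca

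The Psmb9 window is almost wholly shared with the Tap1 window (chr17:34187306-34187605, plus strand), because these genes are transcribed away from each other. Of the 8 members with a promoter in the table, B2m alone held the ISRE as written above, at -139 to -130. Psmb8 alone held the GAS, at -97 to -89. Only exact matches were sought, so near matches in any window are unmarked. Both heavy chain promoters held the kappaB motif, as the same 9 letters ggggattcc. The inverted CCAAT box lay in 6 members. Of 32851 promoter windows of this length, 3.44% held the ISRE, 8.30% the GAS, 5.82% kappaB and 37.4% the inverted CCAAT box. A match describes letters only, and the motifs do not overlap in these windows.

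**Figure D1:**
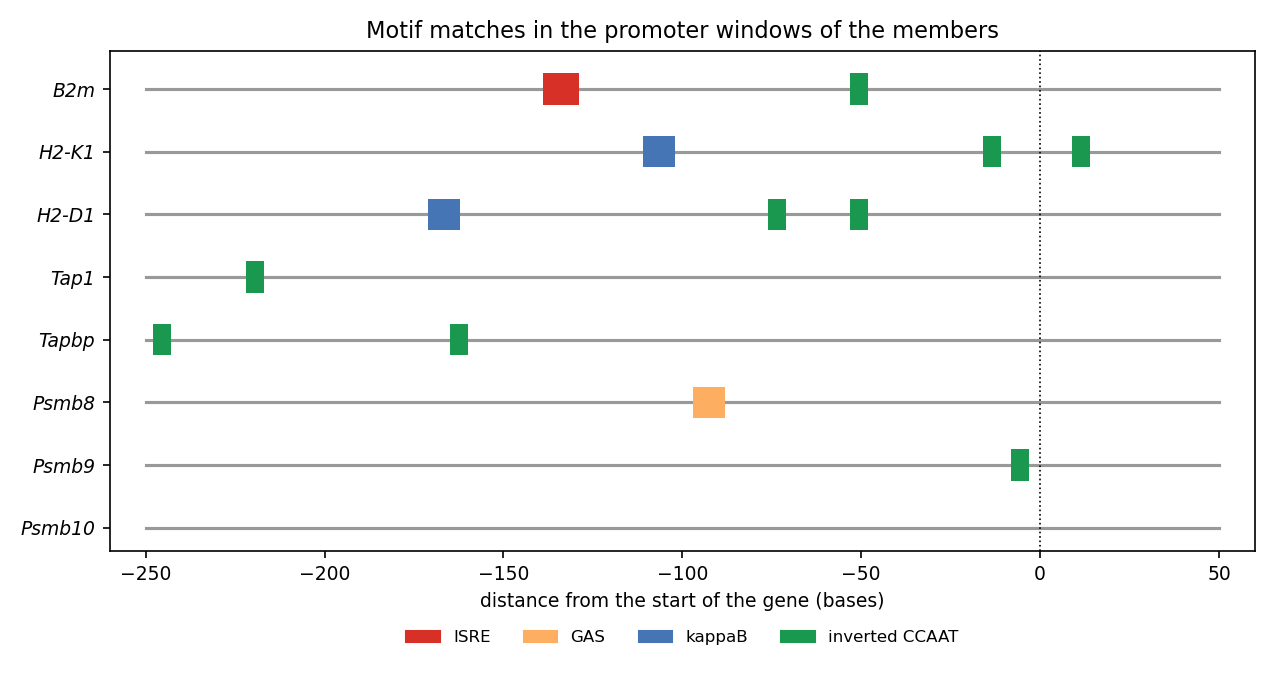
Matches to 4 motifs in the promoter windows of 8 members, with distance from the start of the gene in bases on the horizontal axis and 1 row per gene. For H2-K1 the printed window is drawn. Only exact matches are drawn. B2m carries the only ISRE match, Psmb8 the only GAS match, H2-K1 and H2-D1 carry kappaB, and Psmb10 carries none of the 4.

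None of the 10 members passed an adjusted p of 0.05 in limma over all genes. In that fit 0.0613% of genes were called lower and 0.0189% called higher in KO, so calls were rare throughout. All 10 members had a negative difference, or 9 of 9 without Tap1, beside 46.7% of all genes. For 5 members every KO array lay below every WT array, beside 8.1% of all genes, and for 0 the reverse held, as it did for 2144 of the 21219 genes. At an unadjusted p under 0.05, 4 members were lower and 0 higher in KO, beside 4.23% and 6.15% of all genes. With scan as a block again 0 members were called, beside 0.17% of genes called lower and 0.123% called higher, and 4 were lower at an unadjusted p under 0.05, beside 7.24%. The same 4, B2m, Psmb8, Psmb9 and Nlrc5, had a log2 difference under -1, beside 0.787% of all genes. The median log2 difference of the members was -0.38, or -0.31 without Tap1, beside 0.028 for all genes. With Tap1 it was -0.52 within scan 1 and -0.23 within scan 2. It was -0.41 without WT replicate 1, -0.43 without WT replicate 2, -0.43 with WT replicate 3 as the sole WT array and -0.65 without KO replicate 3. The larger differences were in B2m, in Psmb8 and Psmb9 and in Nlrc5, while the groups overlapped for the heavy chains and for the transport and loading genes.

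**Figure D2:**
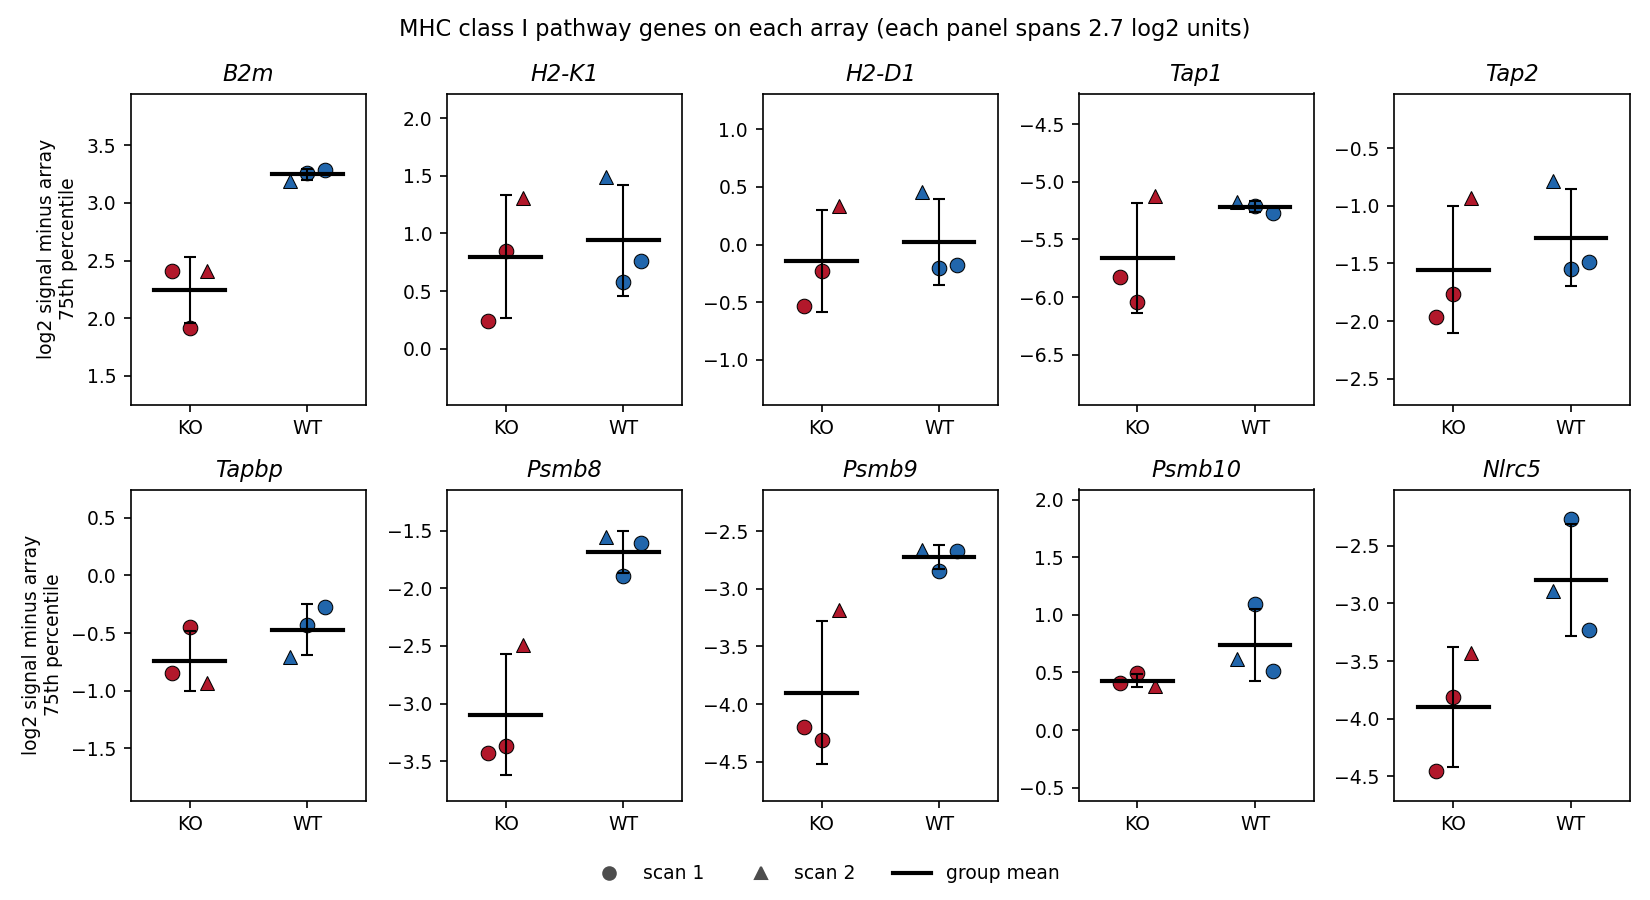
Log2 signal minus the array's 75th percentile for each member, with KO arrays left and WT arrays right. Points are arrays (circles scan 1, triangles scan 2), bars are group means and whiskers the SD of 3 arrays. KO and WT points are apart for B2m, Psmb8, Psmb9, Psmb10 and Nlrc5 and mix for the other 5 genes.

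B2m, the light chain that every class I molecule needs, read 2.41, 1.91 and 2.41 on KO replicates 1, 2 and 3, against 3.19, 3.26 and 3.29 on WT replicates 1, 2 and 3, as log2 signal. The groups did not overlap, and the WT arrays lay within a narrow band. Its mean was 2.25 ± 0.29 in KO and 3.25 ± 0.05 in WT (SD, n = 3 each), a log2 difference of -1.003 ± 0.19 (SE), or 2.00-fold lower in KO. The 95% interval of the difference ran from -1.45 to -0.56, and the limma adjusted p was 0.173, or 0.104 with scan as a block. Within scan 1 it was -1.11 and within scan 2 -0.78, with -1.03 without WT replicate 1, -0.996 without WT replicate 2 and -1.04 against WT replicate 3 alone. Its probe was bright, and normexp background correction left the log2 difference at -1.02.

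The groups overlapped for both classical heavy chains, which hold the peptide. H2-K1 read 0.24, 0.85 and 1.30 on KO replicates 1, 2 and 3, against 1.49, 0.58 and 0.76 on WT replicates 1, 2 and 3. The highest KO value and the highest WT value were both on scan 2, and the groups overlapped. Its log2 difference was -0.14 ± 0.34 (SE), with a 95% interval from -0.94 to 0.65 (limma adjusted p = 0.882), and from -0.60 to 0.31 with scan as a block. The brighter probe of H2-K1 was printed in 10 spots, whose SD within an array was 0.028 to 0.078, while the SD between arrays was 0.53 in KO and 0.48 in WT. Its dimmer probe gave a log2 difference of -0.078. H2-D1 read -0.53, -0.23 and 0.34 on KO replicates 1, 2 and 3, against 0.46, -0.20 and -0.17 on WT replicates 1, 2 and 3, again with the scan 2 arrays highest in each group. Its log2 difference was -0.17 ± 0.29 (SE, limma adjusted p = 0.832), with a 95% interval from -0.84 to 0.50. The sign of both heavy chains turned without KO replicate 1, to 0.13 for H2-K1 and 0.026 for H2-D1. Without WT replicate 1 it also turned, to 0.13 and 0.046, and against WT replicate 3 alone to 0.037 and 0.031. Without WT replicate 2 both differences stayed negative, at -0.33 for H2-K1 and -0.28 for H2-D1. Class I heavy chains are close relatives and differ between mouse strains, so a probe of one may also read another.

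As a description, with the comparison chosen after the values were seen, the within-array log2 difference B2m minus H2-K1 differed by -0.86 between KO and WT, with -0.99 within scan 1 and -0.60 within scan 2. It was 2.17, 1.06 and 1.11 on KO replicates 1, 2 and 3, against 1.71, 2.69 and 2.53 on WT replicates 1, 2 and 3, so the groups overlapped through KO replicate 1. B2m minus H2-D1 differed by -0.83, and the groups overlapped there too.

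The transporter genes were dim or variable. Tap1 read -5.82, -6.04 and -5.13 on KO replicates 1, 2 and 3, against -5.17, -5.21 and -5.27 on WT replicates 1, 2 and 3. Of its 10 printed spots, those left after outlier flags were well above background in 3 of 10, 2 of 9 and 3 of 9 on the KO arrays, against 7 of 10, 10 of 10 and 9 of 9 on the WT arrays. Tap1 was thus not well above background in KO. Its group mean was at least 1.27-fold lower there (measured means -5.66 in KO and -5.22 in WT, limma adjusted p = 0.541). For this bound each KO array counts at its own reading or, if higher, at its dimmest detected probe. The bound leaves out the spread between arrays. KO replicate 3 read above every WT array, and the 95% interval of the measured log2 difference ran from -1.03 to 0.14. With normexp and the 75th percentile the log2 difference of Tap1 turned to 0.30, where the median of all genes was 0.14. Within scan 2 it was 0.047, and within scan 1 -0.69. It was -0.42 without WT replicate 1, -0.44 without WT replicate 2 and -0.39 with WT replicate 3 as the sole WT array, and leaving out 1 KO array moved it between -0.71 (without replicate 3) and -0.26 (without replicate 2).

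Tap2, the partner of Tap1, read -1.96, -1.77 and -0.93 on KO replicates 1, 2 and 3, against -0.79, -1.55 and -1.49 on WT replicates 1, 2 and 3. The scan 2 arrays were again the highest of their groups. The log2 difference was -0.28 ± 0.33 (SE, limma adjusted p = 0.753), and its 95% interval of -1.05 to 0.49 was -0.61 to 0.048 with scan as a block. Single arrays moved it widely, to -0.035 without WT replicate 1, -0.42 without WT replicate 2, -0.074 without KO replicate 1, -0.17 without KO replicate 2 and -0.59 without KO replicate 3, and it was -0.068 with WT replicate 3 as the sole WT array. Tapbp, which encodes the loading factor tapasin, read -0.85, -0.45 and -0.94 on KO replicates 1, 2 and 3, against -0.71, -0.43 and -0.27 on WT replicates 1, 2 and 3. Its groups overlapped, with a log2 difference of -0.27 ± 0.20 (SE, limma adjusted p = 0.621). It was -0.39 without WT replicate 1, -0.25 without WT replicate 2 and -0.47 with WT replicate 3 as the sole WT array, and ranged from -0.42 (without KO replicate 2) to -0.18 (without KO replicate 3 or without WT replicate 3).

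Among the immunoproteasome subunits, Psmb8 had the largest difference, which was also the largest of the 10 members. Psmb8, the chymotrypsin-like inducible subunit, read -3.43, -3.37 and -2.49 on KO replicates 1, 2 and 3, against -1.55, -1.89 and -1.60 on WT replicates 1, 2 and 3. The groups did not overlap, and KO replicate 3, on scan 2, was nearest to WT. The log2 difference was -1.41 ± 0.28 (SE), or 2.66-fold lower in KO, with a 95% interval from -2.06 to -0.76. The limma adjusted p was 0.182, or 0.0552 with scan as a block. It passed in 1 setting, without KO replicate 3 (log2 difference -1.72, limma adjusted p = 0.0427). Within scan 1 it was -1.65 and within scan 2 -0.94. Without WT replicate 1 it was -1.35, without WT replicate 2 -1.52, and with WT replicate 3 as the sole WT array -1.49. Normexp with the 75th percentile gave -0.72.

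Psmb9, the inducible subunit that replaces Psmb6, read -4.20, -4.31 and -3.19 on KO replicates 1, 2 and 3, against -2.66, -2.85 and -2.67 on WT replicates 1, 2 and 3. The groups did not overlap, and KO replicate 3 again lay nearest to WT. The log2 difference was -1.17 ± 0.30 (SE), or 2.25-fold lower in KO (limma adjusted p = 0.334, and 0.124 with scan as a block). It was -1.50 within scan 1 and -0.52 within scan 2, -1.14 without WT replicate 1, -1.23 without WT replicate 2 and -1.23 with WT replicate 3 as the sole WT array. Normexp with the 75th percentile gave -0.28. Psmb10, the inducible trypsin-like subunit, read 0.41, 0.49 and 0.38 on KO replicates 1, 2 and 3, against 0.62, 1.09 and 0.51 on WT replicates 1, 2 and 3. Its groups did not overlap but nearly touched, and the log2 difference was -0.31 ± 0.20 (SE, limma adjusted p = 0.573). It rested largely on WT replicate 2, without which it was -0.13, and it was -0.37 without WT replicate 1 and -0.080 with WT replicate 3 as the sole WT array.

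Nlrc5, the class I transactivator, read -4.45, -3.81 and -3.43 on KO replicates 1, 2 and 3, against -2.89, -2.27 and -3.23 on WT replicates 1, 2 and 3 with its brighter probe. The groups did not overlap, though KO replicate 3 and WT replicate 3 were close. The log2 difference was -1.10 ± 0.34 (SE), or 2.14-fold lower in KO (limma adjusted p = 0.401, and 0.228 with scan as a block). It was -1.38 within scan 1, -0.54 within scan 2, -1.15 without WT replicate 1, -0.83 without WT replicate 2 and -0.66 with WT replicate 3 as the sole WT array. Normexp with the 75th percentile gave -0.27. The other Nlrc5 probe, which did not pass the filter on dim probes, gave 0.061, so the probes of this gene disagreed.

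**Figure D3:**
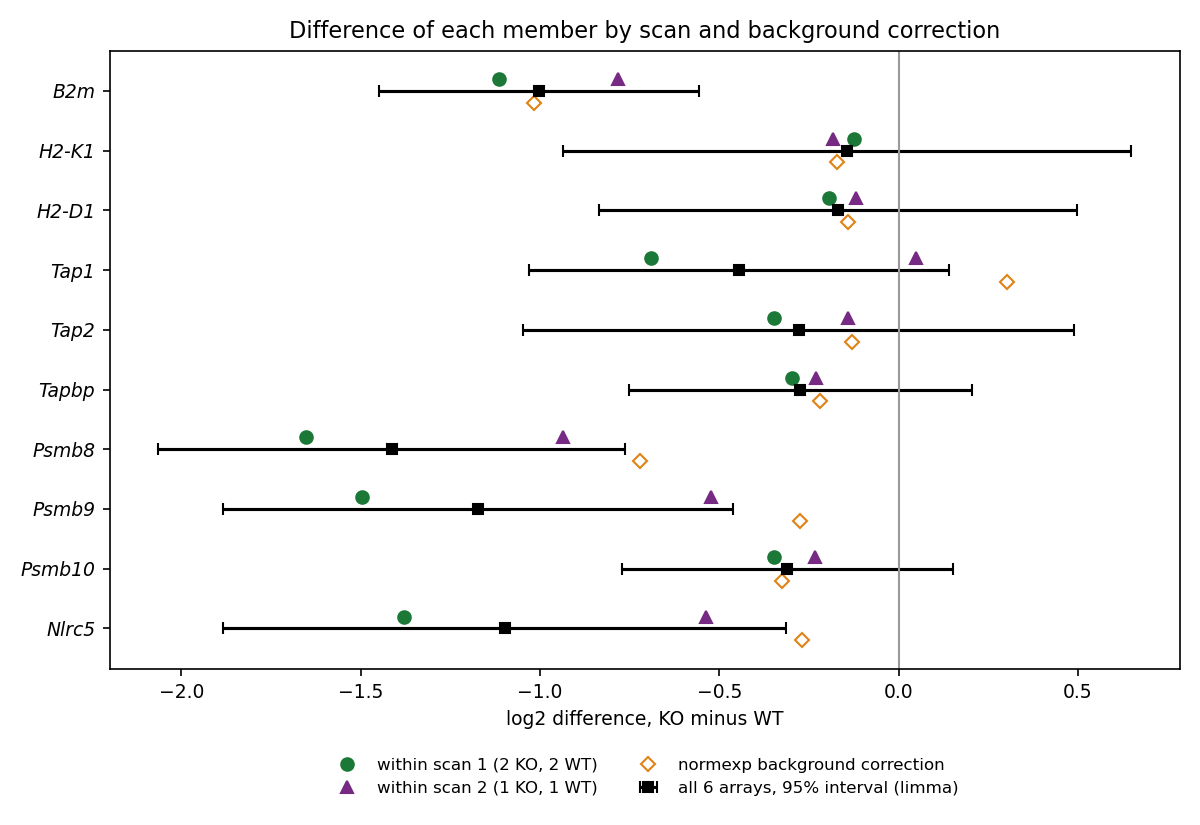
Log2 difference, KO minus WT, for each member. Squares with bars are the limma estimate over 6 arrays with its 95% interval, circles and triangles the differences within scans 1 and 2, and open diamonds the difference after normexp background correction. The intervals of B2m, Psmb8, Psmb9 and Nlrc5 lie below 0, and normexp moves the dim genes Psmb8, Psmb9, Nlrc5 and Tap1 to the right but leaves B2m in place.

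Each inducible subunit takes the place of a constitutive one, Psmb8 of Psmb5, Psmb9 of Psmb6 and Psmb10 of Psmb7, so the within-array log2 difference of each pair was compared between the groups (3 pairs). Psmb8 minus Psmb5 stood at -7.93, -8.12 and -7.33 on KO replicates 1, 2 and 3, against -6.31, -6.54 and -5.96 on WT replicates 1, 2 and 3. It was lower by a log2 difference of -1.52 in KO, with no overlap (exact permutation p = 0.1, two-sided, the smallest that 20 splits of 3 against 3 allow, and 0.15 adjusted over the 3 pairs). It was -1.55 without WT replicate 1 and -1.66 without WT replicate 2. Within scan 1 it was -1.78 and within scan 2 -1.01, and normexp with the 75th percentile gave -0.78. The constitutive Psmb5 itself differed by 0.11, so nearly all of the shift of -1.52 lay in Psmb8.

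Psmb9 minus Psmb6 differed by -1.18 between KO and WT (exact permutation p = 0.1, adjusted p = 0.15), with -1.53 within scan 1, -0.49 within scan 2 and -0.20 with normexp and the 75th percentile, and Psmb6 alone by 0.0089. It was -1.07 without WT replicate 1 and -1.31 without WT replicate 2. KO replicate 3 (-8.32) and WT replicate 2 (-8.31) nearly met. Psmb10 minus Psmb7 differed by -0.037 (exact permutation p = 0.9, adjusted p = 0.9), since Psmb7 (-0.27) and Psmb10 (-0.31) were lower in KO by like amounts. These levels come from different probes, so the difference within an array has no meaning as a ratio of subunits.

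**Figure D4:**
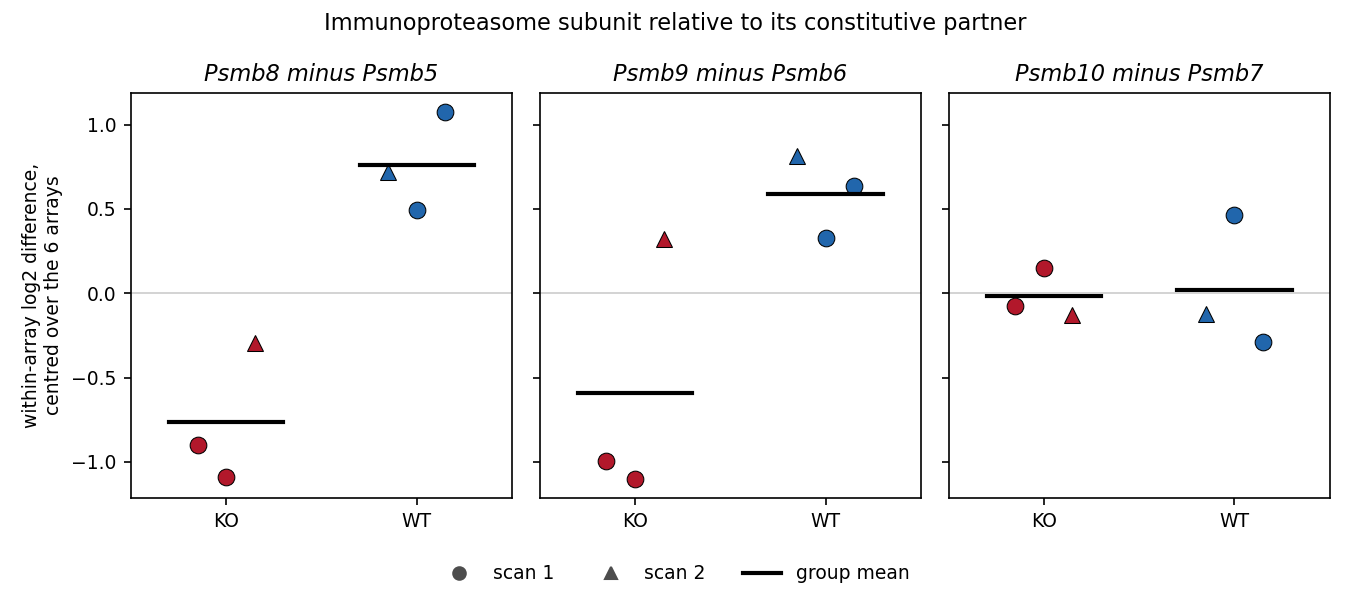
Within-array log2 difference between each inducible subunit and its constitutive partner, centred on the mean of the 6 arrays, with KO arrays left and WT arrays right. Circles are scan 1, triangles scan 2 and bars group means. KO lies below WT for Psmb8 minus Psmb5, nearly meets WT for Psmb9 minus Psmb6 and mixes with WT for Psmb10 minus Psmb7.

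Other genes of the pathway gave no call in limma, with or without scan as a block. Of 13 measured nonclassical and other MHC-encoded heavy chains, 10 had a negative and 3 a positive difference, with a median of -0.26. H2-M3, which presents formylated peptides, read -2.85, -3.41 and -2.89 on KO replicates 1, 2 and 3, against -2.23, -2.28 and -2.57 on WT replicates 1, 2 and 3 (log2 difference -0.69 ± 0.21 SE, limma adjusted p = 0.401). H2-M11 stood on the other side with a log2 difference of 1.15 and overlapping groups (limma adjusted p = 0.473). H2-Q1, also positive, entered the test only through the KO arrays, where it was higher, and was well above background on just 1 WT array, so its measured log2 difference of 1.04 (limma adjusted p = 0.375) is set against mostly undetected signal. H2-Q8 differed by -0.54 without overlap (limma adjusted p = 0.483). The 7 measured class I-like genes had a median log2 difference of -0.33. Among them Azgp1 had the smallest p, with a log2 difference of -0.55 and overlapping groups. Azgp1 entered the test, and so this median, only through the WT arrays, where it was higher. It was well above background on just 2 KO arrays. Fcgrt, the neonatal Fc receptor, Mr1, which presents vitamin metabolites, and Procr differed by -0.40, -0.42 and -0.33. For these 3 every KO array lay below every WT array, beside 8.1% of all genes.

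Genes of peptide loading and trimming had a median log2 difference of -0.18 over 11 measured members, 6 negative and 5 positive. Lnpep, a trimming aminopeptidase, differed by -0.36 without overlap, and Bcap31, an export factor of the endoplasmic reticulum, by -0.39 with overlap (limma adjusted p = 0.490 and 0.502). The chaperone genes Calr (-0.33), Canx (0.21) and Pdia3 (-0.35) went both ways, and the trimming enzyme gene Erap1 differed by -0.18. Among 9 genes of proteasome activators and assembly the median was 0.0092. Psme1, a subunit of the interferon-inducible activator PA28, read 1.62, 1.59 and 1.92 on KO replicates 1, 2 and 3, against 2.42, 2.04 and 2.24 on WT replicates 1, 2 and 3 (log2 difference -0.52 ± 0.18 SE, limma adjusted p = 0.437). Its partner Psme2 differed by 0.0092, with overlapping groups.

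Of 16 measured regulators of class I transcription, 9 had a negative and 7 a positive difference, with a median of -0.016. Irf9, the DNA-binding subunit of the interferon-activated factor ISGF3, read 0.75, 0.82 and 1.13 on KO replicates 1, 2 and 3, against 2.15, 1.89 and 1.68 on WT replicates 1, 2 and 3. Its groups were well apart, with a log2 difference of -1.01 ± 0.20 (SE, limma adjusted p = 0.180, and 0.0516 with scan as a block). Stat2, which pairs with it, differed by -0.68 (limma adjusted p = 0.428) and Rfxank, a subunit of the RFX complex at class I and class II promoters, by -0.65 (0.2997), both without overlap. Atf1 differed by 0.59 (limma adjusted p = 0.446), with every KO array above every WT array. Of the 16 regulators, 5 had every KO array below every WT array, beside 8.1% of all genes, and Atf1 alone had the reverse. Irf1, an interferon-induced activator of class I genes, differed by -0.12 with overlapping groups, and no probe of Irf7 passed the filter.

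The class II pathway, which presents extracellular peptides and is active in fewer cell types, had a median log2 difference of -0.18 over 8 measured genes, 5 negative and 3 positive, and none was called. Cd74, the invariant chain, differed by 0.68, Ctss by -0.49 and H2-Ab1 by -0.19. Interferon-induced genes outside the pathway differed more. All 18 measured had a negative difference, beside 46.7% of all genes, with a median of -1.75. In limma over all genes 5 were called lower, beside 0.0613% of all genes. With scan as a block 9 were called lower, beside 0.17% of all genes. The 5 called without the block were Oasl2 (-3.14), Ifi27l2a (-3.15), Ifit1 (-3.07), Oas1a (-2.04) and Xaf1 (-1.94), as log2 differences. The guanylate-binding gene Gbp7 differed by -1.55 and the interferon-induced GTPase gene Irgm1 by -1.20 (limma adjusted p = 0.0920 and 0.0622), both named after their values were seen. The interferon list was chosen with its direction in these arrays known, so its count is no independent evidence.

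**Figure D5:**
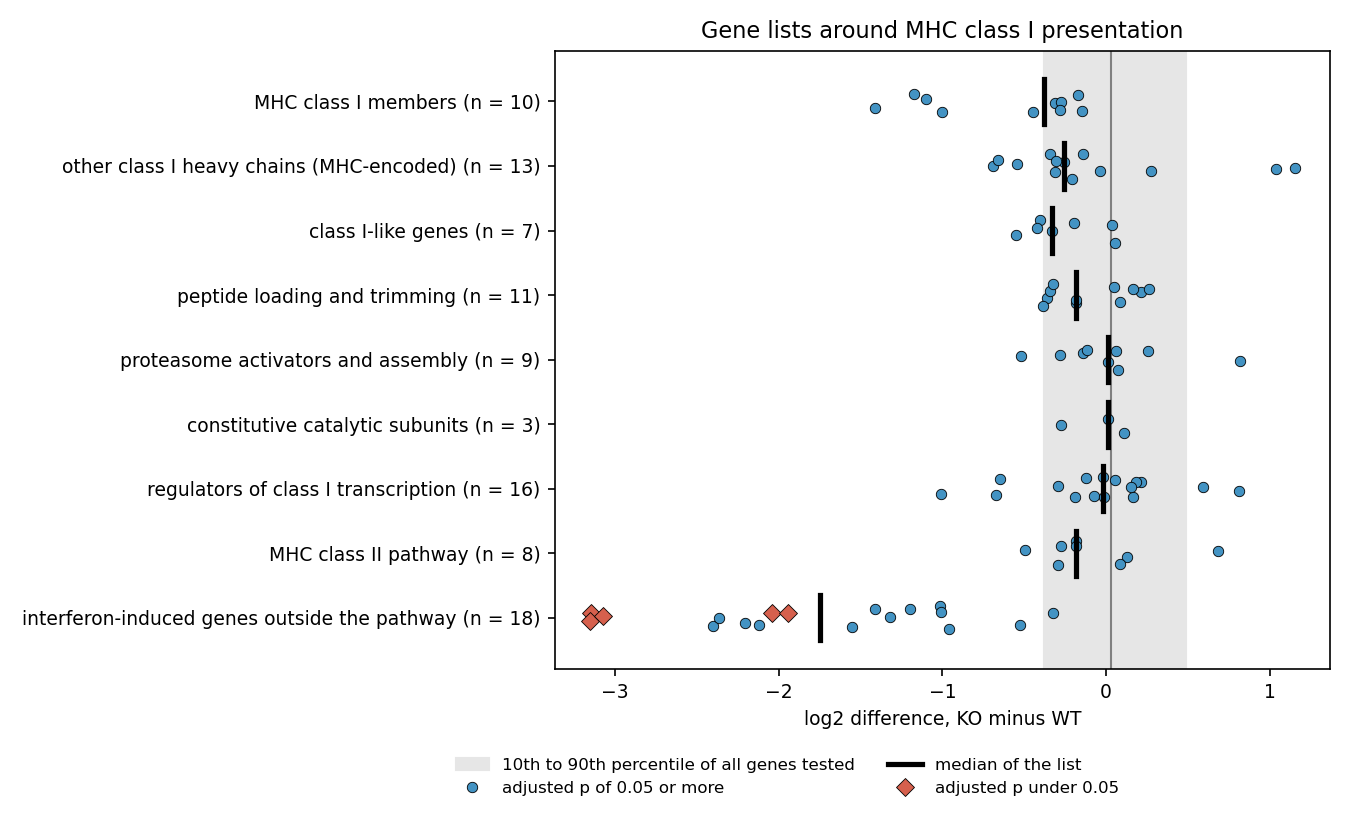
Log2 difference, KO minus WT, of every measured gene of the class I members and of 8 related lists. Points are genes, diamonds genes with a limma adjusted p under 0.05, black bars list medians and the grey band the 10th to 90th percentile of all genes tested (-0.38 to 0.49). The diamonds are the 5 called interferon-induced genes, and the class I members run from -1.41 to -0.14.

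Class I genes are expressed at high levels by blood and endothelial cells, and in whole kidney fewer cells of a type and less RNA per cell cannot be told apart. Of 12 measured macrophage and dendritic cell markers, 8 had a negative difference, beside 46.7% of all genes, and none was called. With scan as a block 1 was called lower, Cx3cr1 (log2 difference -1.58, limma adjusted p = 0.0350 with the block), beside 0.17% of all genes. For 4 of the 12, Cx3cr1, Fcgr1 (-1.28), C1qc (-0.87) and C1qa (-0.77), every KO array lay below every WT array, beside 8.1% of all genes. The groups overlapped for C1qb (0.018), Csf1r (-0.11) and Mrc1 (0.13). The summed linear signal of the 12 markers, in units of the array's 75th percentile, ranged from 10.7 to 30.8 in KO and from 11.3 to 30.9 in WT. That range followed Itgam, which read 4.10, 4.61 and 2.24 on KO replicates 1, 2 and 3, against 2.05, 3.95 and 4.59 on WT replicates 1, 2 and 3. Without Itgam, left out after its values were seen, the sum was 5.96 to 6.37 in KO and 6.88 to 7.78 in WT, so the groups did not overlap. Itgax, Xcr1 and Lyz2 had no probe that passed the filter.

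Of 12 T and NK cell markers 5 were measured and summed to 2.25 to 2.66 in KO and 2.42 to 2.74 in WT, and Cd3d, Cd3g, Cd2, Cd8b1, Ncr1, Klrb1c and Gzmb had no probe that passed. Of 6 B cell markers 2 were measured and summed to 0.256 to 0.351 in KO and 0.358 to 0.423 in WT, and Cd79b differed by -0.46. The 11 endothelial markers had a median log2 difference of -0.17, and none was called. For 4 of them, Sox18 (-0.75), Cdh5 (-0.54), Tek (-0.59) and Pecam1 (-0.22), every KO array lay below every WT array, beside 8.1% of all genes, and the first 3 had an unadjusted limma p under 0.05 (adjusted p from 0.315 to 0.462). Kdr (0.057) and Flt1 (0.092) overlapped, and the summed signal of the list was 26.3 to 31.2 in KO and 26.7 to 31.9 in WT. The part of these cell types in the class I values was not tested.

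Averaged over the members, Tap1 included, the centred log2 profile was -0.58, -0.44 and 0.071 on KO replicates 1, 2 and 3, against 0.44, 0.29 and 0.22 on WT replicates 1, 2 and 3. KO replicate 3 thus lay between the groups, nearer to WT than the other KO arrays. The 5 named genes outside the list whose centred values were nearest to this profile over the 6 arrays, by root mean square difference, were Nol3 (0.068), Agbl2 (0.10), Pdgfrb (0.11), Fcgr4 (0.11) and Gpr65 (0.11). Nol3 encodes an inhibitor of apoptosis, Pdgfrb a growth factor receptor of mural and stromal cells, Fcgr4 an Fc receptor of myeloid cells and Gpr65 a proton-sensing receptor. Their log2 differences ran from -0.78 for Fcgr4 to -0.47 for Gpr65, and none passed the limma test (adjusted p from 0.375 to 0.477).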

How the data were processed

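RNA from the kidneys of 6 neonates was labelled with Cy3 and put on 1 array each. The authors deposited scanner output, in which the intensity per spot is on a linear scale with background removed and no scaling across arrays, per the file headers. These name Agilent Feature Extraction 11.0.1.1, whereas the submitters' processing notes name 9.1. Groups came from the labels. Spots flagged as outliers were dropped, values were put on the log2 scale relative to the 75th percentile of their array's non-control spots, and repeated spots were averaged. For 27234 of 39429 probes (69.1%) the accession matched 1 gene of a RefSeq table (GRCm38.p6). The headers name another build, so only promoter windows carry coordinates. A probe entered if well above background, in over 50% of its spots, on every array of at least 1 group. Where several did, the brightest was used for the gene. The test was limma 3.58.1 in R 4.3.3 (two-sided, Benjamini-Hochberg over 21219 genes, threshold 0.05). The code was run on simulated arrays with changes larger than any member's and without a scan effect. That run cannot show how well the test finds changes like the members' on these arrays. Correlations of deviations from group means between same-numbered arrays were -0.40, 0.48 and -0.60. The highest of all KO and WT pairs, 0.89, was between KO replicate 3 and WT replicate 1, which share a scan. With so few arrays in each group and scan differing among them, these correlations cannot show whether the numbers pair the samples. Without a mean signal column, normexp (offset 50) used median signal and background. All members are named, and genes of other lists from the 4 with the smallest p in each list or, otherwise, after their values were seen. Members, lists and tests were chosen with earlier results of these data known. P-values measure the spread between these samples.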

Additional observations from a re-analysis of the deposited data

How the results depend on the processing

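Over all genes 17 were called in limma, and 27 after normexp scaled to the 75th percentile, 27 with every probe tested on its own, 8 with probes averaged per gene, 1 with a stricter filter, 45 with an intensity trend and robust variance, 62 with scan as a block and 81 at an adjusted p of 0.10. No gene was called in limma with normexp and quantile normalization, without a filter or against WT replicate 3 alone, where 2245, 2051 and 2009 genes had an unadjusted p under 0.05. Of the genes in the other lists 5 were called, and in the same order of settings 8 after that normexp setting, 3 with averaged probes, 1 with the stricter filter, 9 with the trend, 10 with scan as a block and 0 in the last 3. Leaving out 1 array gave 0 to 30 genes, 0 to 7 listed genes, 0 to 1 members called lower and a member median of -0.65 to -0.33; the upper counts, the 1 member (Psmb8) and -0.65 all came without KO replicate 3, and the other 5 omissions called no gene. B2m, Psmb8, Psmb9 and Nlrc5 stayed negative in all 19 alternatives, B2m between -1.11 and -0.84, Psmb8 between -1.72 and -0.72, Psmb9 between -1.53 and -0.28 and Nlrc5 between -1.38 and -0.27. Tap1 turned to 0.30 after that normexp setting. H2-K1 turned to 0.13 without KO replicate 1, 0.13 without WT replicate 1 and 0.037 against WT replicate 3 alone, and H2-D1 to 0.026, 0.046 and 0.031. Leaving out 1 array gave -0.40 to 0.13 for H2-K1 and -0.41 to 0.046 for H2-D1, the lowest without KO replicate 3. Psmb10 minus Psmb7 ranged from -0.19 to 0.19 when 1 array was left out, turning to 0.017 without KO replicate 3 and 0.19 without WT replicate 2. The causes were not tested. With replicate number as a block, limma called 0 genes and 0 listed genes (1610 at an unadjusted p under 0.05). The adjusted p in that fit was 0.299 for Psmb8 and 0.440 for B2m. Whether the numbers pair the samples is not given. Dim signals near background limit Tap1, Psmb8, Psmb9 and Nlrc5.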
